A study of Ovis aries with 2 samples.

Results

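The matrix and adhesion genes described here are the collagens, the laminins, the integrin subunits, the cadherins with the protocadherins, and the claudins. They were found by name among the genes assigned to PPARG intervals, as names that begin with COL and a digit, ITGA, ITGB, LAMA, LAMB, LAMC, CDH and a digit, PCDH or CLDN. The rule found 9 gene names at 10 intervals, out of 1833 gene names and 2288 PPARG intervals in all. Of the 9, 8 belong to the families, and CLDND2 encodes a claudin domain protein that is not a claudin. A further collagen, COL26A1, stood in the table under its older name EMID2, outside the rule, and is counted below only where family shares are given. The PPARG library was made by chromatin immunoprecipitation and sequencing (ChIP-seq) from conceptuses, each the embryo with its extraembryonic membranes, flushed on day 14 of pregnancy from columbia/ramboulette crossbred ewes. Material of 4 conceptuses, each from its own ewe, was pooled and precipitated with an anti-PPARG polyclonal antibody raised in rabbit, and the input library was unprecipitated chromatin, also labelled as a pool of 4. Each library was made once, so no value below carries an error between animals and no test was made. The files hold no expression values, so the tissue was not checked against marker genes, and signal from the embryo and from its membranes cannot be told apart.

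PPARG, the gamma form of the peroxisome proliferator-activated receptors, is a nuclear receptor that binds DNA together with a retinoid X receptor. It is known as a regulator of lipid metabolism and, in mice, is needed for trophoblast development in the placenta. On day 14 the sheep conceptus elongates, and its outer epithelium, the trophectoderm, comes to lie along the uterine lining. Laminins and type IV collagen build the basement membrane under an epithelium. Integrins, each an alpha with a beta subunit, tie cells to that matrix, while cadherins and claudins join neighbouring cells at adherens and tight junctions.

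Family genes held a PPARG interval in 9 of 139 named members (6.47%, exact binomial 95% interval 3.00 to 11.94), COL26A1 included, against 1523 of 16387 named sheep genes (9.29%). The interval of the families' share includes 9.29%, so the count is not a result about the families as a whole. Named genes leave out symbols made of LOC and a number, so the family totals can lack members listed only under such symbols. The table's older names were resolved by hand only for genes of the families and of the partner lists. LOC and tRNA names aside, 137 other names matched no gene. If each of these were a further gene, the share of all named genes would be 10.1%. Collagens had an interval at 2 of 43 members (4.65%, 0.568 to 15.8), COL11A2 and COL26A1. Collagens without an assigned interval included those of the basement membrane, COL4A1 to COL4A6, and the main fibrillar chains COL1A1, COL1A2 and COL3A1. Laminin alpha chains had 2 of 5 members with an interval, LAMA3 and LAMA5, and the beta and gamma chains had 0 of 3 each. Integrin alpha subunits had 3 of 18 (16.7%, 3.58 to 41.4), ITGA5, ITGAD and ITGAE, and the beta subunits had 0 of 8. ITGAV and ITGB3, whose products form a receptor for osteopontin, were among those without an interval. Protocadherins had 2 of 14 (14.3%, 1.78 to 42.8), PCDH1 and PCDH9. Cadherins named CDH, among them the E-cadherin gene CDH1, had 0 of 22, which allows a share of up to 13.6% (exact 95% bound 15.4%). Claudins had 0 of 23, which allows up to 13.0% (exact 95% bound 14.8%). These intervals and limits cover counting error over genes only, and the exact interval of every family includes 9.29%.

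**Figure D1:**
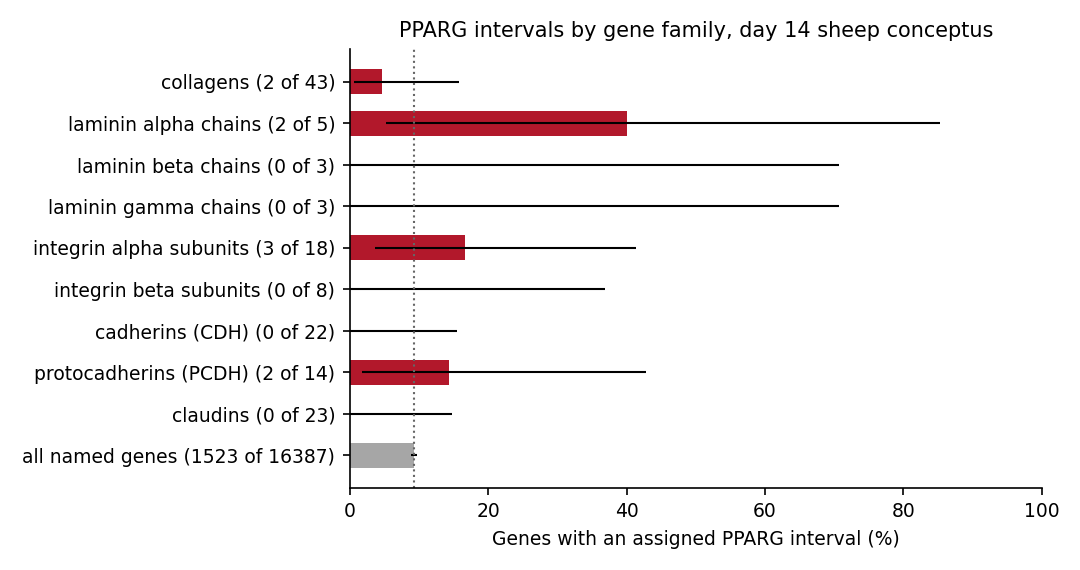
Share of named genes with an assigned PPARG interval in each family (red bars, percent) and among all named genes (grey bar). Black lines are exact binomial 95% intervals and the dotted line is the 9.29% of all named genes, which every black line of a family crosses; only the collagens, laminin alpha chains, integrin alpha subunits and protocadherins have a bar above 0.

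No interval lay within 1 kb of the start of the gene it was listed for, where the 9 listed genes are those the rule found, CLDND2 included. Among the 10 pairs of interval and listed gene this was 0, which allows a share of up to 30.0% (exact 95% bound 30.85%). Among all 2160 pairs of interval and gene it was 467 (21.6%). Counted by gene, 0 of 139 family members had an interval within 1 kb of their own start, which allows up to 2.16% (exact 95% bound 2.62%), against 2.32% of all named genes. Within 5 kb there were 2 of 10 pairs (20.0%, 2.52 to 55.6), against 39.9% of all pairs. The listed gene contained the interval in 4 of 10 cases (40.0%, 12.2 to 73.8), against 39.5% of all pairs. The other intervals lay upstream of the listed gene in 2 cases (20.0%, 2.52 to 55.6), against 39.0% of all pairs. They lay downstream in 4 (40.0%, 12.2 to 73.8), against 21.5% of all pairs. With 10 pairs, the shares within 1 kb, within 5 kb, inside the gene, upstream and downstream cannot be told apart from those of all pairs. Counted by gene, the exact bound of 2.62% likewise includes the 2.32% of all named genes.

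The 10 intervals split into 6 assigned to a family gene alone and 4 (3 at family genes and that of CLDND2) assigned to other genes as well. Heights, the highest signal in an interval in the authors' units, were 92 at ITGAE, 74 at LAMA5, 59 and 40 at PCDH1, 32 at LAMA3 and 18 at PCDH9 for the 6 alone. Their median was 49.5, against 22 for all 1076 intervals with a single assigned gene. The 4 shared intervals had 29 at CLDND2, 20 at COL11A2, 20 at ITGAD and 19 at ITGA5, with a median of 20, against 24 for all 442 intervals with 2 or more genes. All but 1 of the intervals alone were thus higher than all of the shared ones. Of the 6 alone, 2 belong to PCDH1 and are not independent, so these medians only describe the listed intervals. Over the 10 intervals the median height was 30.5 (quartiles 20 and 54.2), against 22 for all intervals (17 and 31). At or above the upper quartile of all intervals, a height of 31, there were 5 of 10 (50.0%, 18.7 to 81.3), against 25.5% of all intervals. These values describe 1 library, and the members' wide interval of 18.7 to 81.3 includes 25.5%. None of the 10 overlapped any of the 5 input intervals, but only 5 of all 2288 did (0.219%). The 0 here is therefore not a result about these genes.

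**Figure D2:**
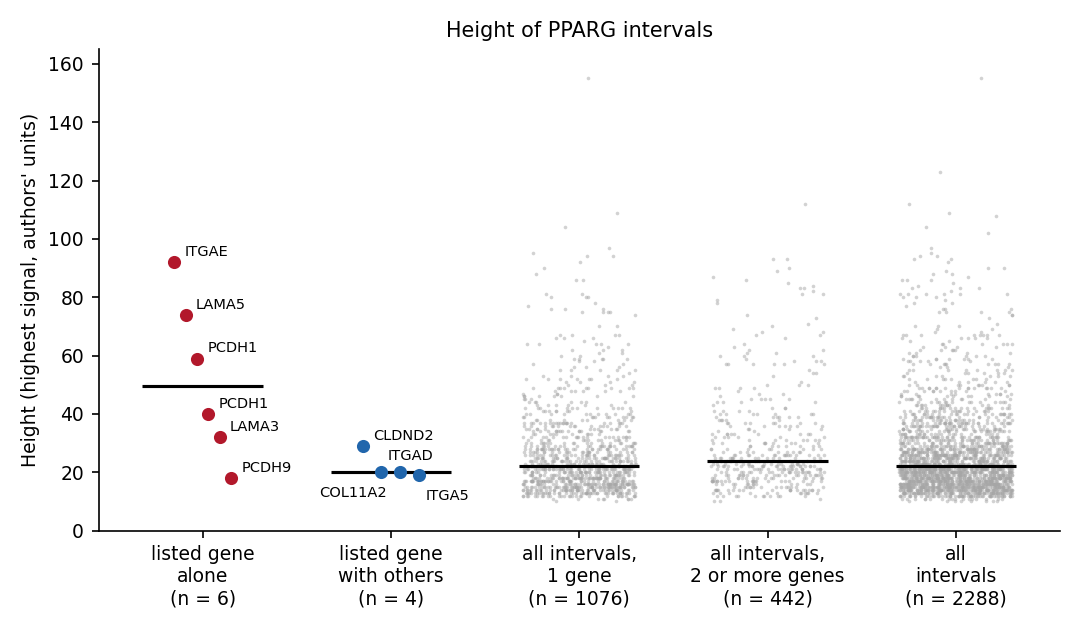
Height of each interval (highest signal, authors' units) at a listed gene alone (red), at a listed gene with other genes (blue, CLDND2 included), and for all intervals with 1 gene, with 2 or more genes and in all (grey); horizontal lines are medians. The 6 red points run from 18 to 92 with a median of 49.5, and the 4 blue points from 19 to 29 with a median of 20.

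ITGAE encodes the integrin alpha E subunit, which pairs with beta 7 and binds E-cadherin, and is best known from lymphocytes that reside in epithelia. Its interval (chromosome 11, 24007554 to 24008561, build Oar_v3.1) had a height of 92 and a mean signal of 28.5, and ranked 14 of 2288 by height. The summit lay 37522 bp from the start, inside the gene, and the interval held 1 CpG island, a GC-rich stretch of the kind found at many promoters, but no annotated promoter. Among all 853 pairs with the interval inside the gene, ITGAE had the highest value, the median being 22. The genes of its partner subunit, ITGB7, and of its ligand, CDH1, had no assigned interval.

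ITGA5 and ITGAD, the other integrin genes, had lower intervals that other genes shared. ITGA5 encodes the alpha subunit of the main fibronectin receptor. Its interval (chromosome 3, 132030361 to 132032862) reached only 19 but was 2501 bp long, rank 4 by length among 2288. Its summit lay 23296 bp from the ITGA5 start, downstream of the gene, and inside ZNF385A, a zinc finger gene, at 6921 bp from that gene's start. A further interval of height 15 lay inside ZNF385A, with its summit 2080 bp from that one, so the site was broad, low and inside the neighbouring gene. ITGAD encodes the alpha D subunit, which leukocytes pair with beta 2. Its interval (chromosome 24, 27474280 to 27475097) had a height of 20 at 27915 bp from the start, downstream of the gene, and its summit was only 1453 bp from the start of LOC101106131.

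LAMA5 encodes the laminin alpha 5 chain, a widely expressed chain of epithelial basement membranes. Its interval (chromosome 13, 54190133 to 54192220) had a height of 74 and a mean signal of 19.0, and ranked 50 by height and 22 by length, at 2087 bp. The summit lay 8754 bp upstream of the LAMA5 start, with no CpG island and no annotated promoter. Among the 291 pairs more than 5 kb upstream of a gene it ranked 6, where the median was 22. It was not a lone site, since 2 further intervals had their summits 3936 and 5936 bp away. These reached 20 and 15 and were assigned to RPS21, a ribosomal protein gene, at 7332 and 5332 bp upstream of its start, the lower of them also to CABLES2. The distances of both give the same RPS21 start, from which the LAMA5 summit is 11268 bp away, beyond the 10470 bp that upstream assignments reached in this table. The tallest of these 3 sites was thus listed under LAMA5 alone, and the 2 lower ones under RPS21. Another summit within 10 kb was found for 315 of all 2288 intervals (13.8%) and for 2 of the 10 here, those at LAMA5 and ITGA5.

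LAMA3 encodes the alpha 3 chain of the laminin that anchors epithelia through hemidesmosomes. Its interval (chromosome 23, 33073576 to 33074893) had a height of 32, rank 505, and lay inside the gene at 180365 bp from the start. The interval held no CpG island and no promoter, and no other summit lay within 100 kb of it, as was also the case at ITGAE, ITGAD, PCDH9 and CLDND2. The share of all intervals with no other summit within 100 kb was not determined, so this is not read as particular to these genes.

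PCDH1, a protocadherin gene known for its role in the airway epithelium, was the only family gene with 2 intervals. The higher (chromosome 5, 50311900 to 50313014) had a height of 59, rank 101, at 18575 bp from the start and downstream of the gene. The lower (50326826 to 50328052) had a height of 40, rank 292, inside the gene at 3247 bp from the start. Both summits and distances give a single gene start at 50330863, on the side of higher coordinates, so the gene runs toward lower coordinates and the sites lie on either side of its end, 15328 bp apart. Each held 1 CpG island and no annotated promoter. Of all 1805 gene names other than those of tRNAs, 223 (12.4%) had 2 or more intervals. The nearest other site, of height 30, was 35136 bp from the lower one and was assigned to KIAA0141, 6331 bp upstream of its start. PCDH9, a protocadherin gene known mainly from the nervous system, had the lowest interval of the families (chromosome 10, 40607478 to 40608346). Its height was 18, below the median of 22, inside the gene and 215729 bp from the start.

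**Figure D3:**
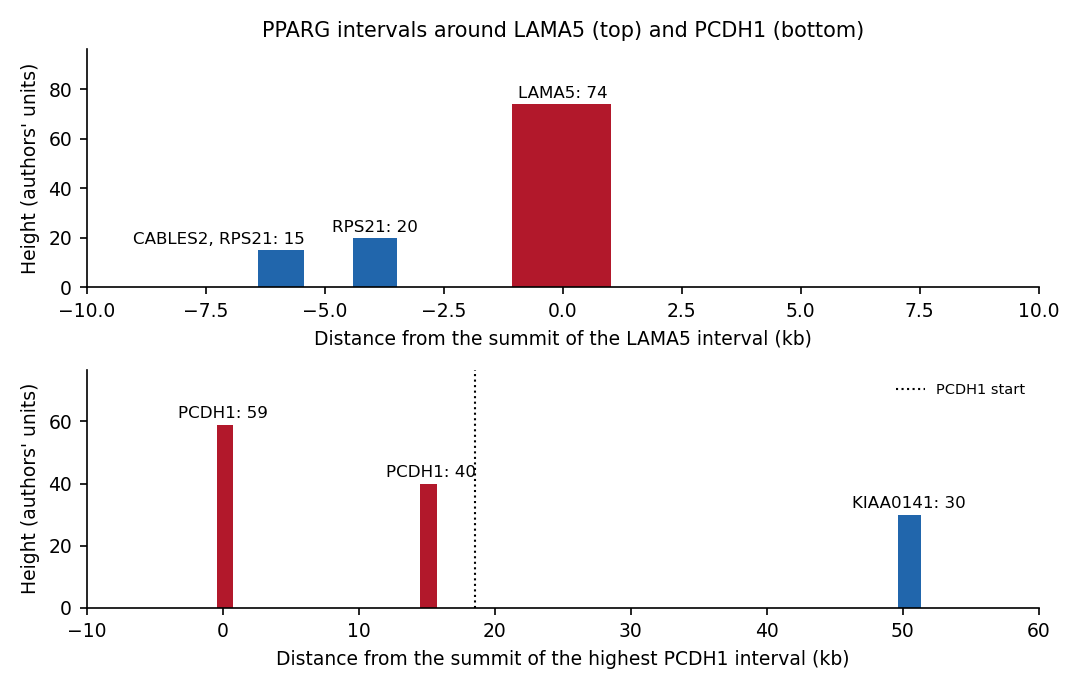
PPARG intervals around LAMA5 (top) and PCDH1 (bottom), drawn to scale as bars whose width is the interval and whose height is its highest signal in the authors' units, against the distance in kb from the LAMA5 summit or the higher PCDH1 summit. Red bars are assigned to the family gene, blue bars to other genes; the LAMA5 bar of 74 stands beside RPS21 bars of 20 and 15, and the PCDH1 bars of 59 and 40 lie on the same side of the PCDH1 start (dotted line).

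COL11A2 encodes a chain of the fibrillar collagen of cartilage, type XI. Its interval (chromosome 20, 7489246 to 7490073) had a height of 20, below the median. The summit lay 8295 bp upstream of the COL11A2 start, but 262 bp upstream of RXRB, which encodes a retinoid X receptor, and 404 bp upstream of SLC39A7, a zinc transporter gene. HSD17B8 and RING1 were also assigned, at 3586 and 8158 bp upstream. The interval held 1 CpG island and 3 annotated promoters, and the nearest of the 5 assigned starts was that of RXRB. The other collagen gene with an interval, COL26A1, encodes type XXVI collagen. Its interval (chromosome 24, 35091986 to 35092819) had a height of 19, downstream of the gene and 199552 bp from its start, with no CpG island and no promoter, and was also assigned to MYL10. Like that of COL11A2, the interval of CLDND2 (chromosome 14, 56379438 to 56380334) held 1 CpG island and annotated promoters, here 2, with a height of 29. Its summit was 1565 bp from the CLDND2 start, downstream of the gene, and 421 bp upstream of ETFB, which encodes a subunit of the electron transfer flavoprotein of fatty acid oxidation. NKG7 and LIM2 were assigned to it as well, at 5183 and 17541 bp, downstream. In the shared intervals of COL11A2, ITGA5, ITGAD and CLDND2, another gene's start was nearer to the summit than that of the gene named here. Only 1 gene of a shared interval can be the nearest, and the share over all shared intervals was not determined.

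**Figure D4:**
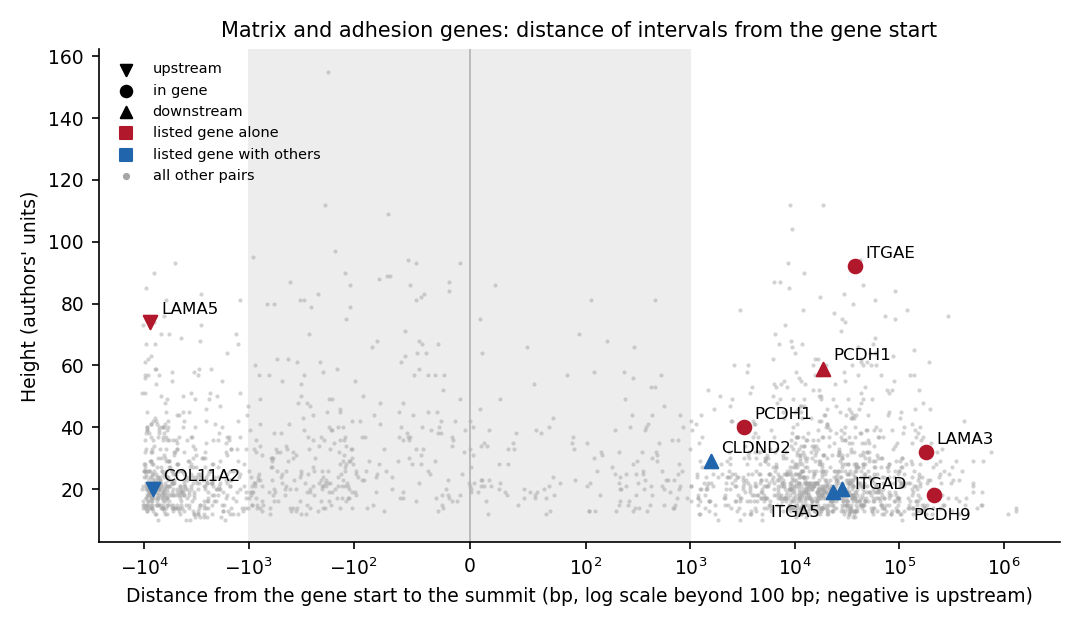
Height (authors' units) against the signed distance of the summit from the gene start (bp, log scale beyond 100 bp, negative upstream) for intervals at listed genes (CLDND2 included), by position (marker shape) and by whether other genes share the interval (red alone, blue shared), with all other pairs of interval and gene in grey. No coloured marker lies in the shaded band within 1 kb of the start, and the smallest distances are 1565 bp at CLDND2 and 3247 bp at PCDH1.

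CpG islands were marked in 5 of the 10 intervals (50.0%, 18.7 to 81.3), against 24.8% of all intervals. All 10 have an assigned gene by the rule, as do only 1518 of the 2288 intervals, so the compared sets differ. At COL11A2 and CLDND2 the island came with promoters. At ITGAE and at both PCDH1 sites it came without any, 3 of 10 intervals (30.0%, 6.67 to 65.2), against 145 of 2288 (6.34%). These 3 had heights of 92, 59 and 40, against a median of 25 and an upper quartile of 36 for all 145, among which they ranked 2, 10 and 21. The 2 PCDH1 sites belong to the same gene and are not independent, though the interval of 6.67 to 65.2 counts them as if they were. Islands without a promoter were also not among the planned shares. The 30.0% is therefore not read as an excess over 6.34%.

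Partner genes of the families were followed in 7 lists, with 23 of 137 genes holding an interval (16.8%, 10.95 to 24.1), against 9.29% of all named genes, which lies below that interval. The genes were chosen as well-studied ones, and with earlier results of these data known. Their share is therefore not read as an excess, and the part that this choice has in it was not tested. With TJP3 left unmatched under its older name, the count was 22 of 137 (16.1%, 10.35 to 23.3). Integrin adaptors and focal adhesion genes had 5 of 20 (25.0%, 8.66 to 49.1). TNS1, a tensin gene, had a height of 35. TLN1, the gene of talin, which links integrins to actin, had 28 and 25 in intervals shared with GBA2 and CREB3. The parvin genes PARVB and PARVA had 27 and 19, and ACTN1, an actinin gene, had 13. All 5 genes contained their intervals. Catenins and cadherin partners had 3 of 14 (21.4%, 4.66 to 50.8). PLEKHA7, an adherens junction protein gene, had 46, inside the gene at 195676 bp from its start. JUP, the plakoglobin gene, had 27 inside the gene at 1418 bp, and CTNNBIP1, whose product inhibits beta-catenin, had 25. The genes of the catenins proper, CTNNA1, CTNNB1 and CTNND1, had none.

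Tight junction partners of the claudins had 5 of 20 genes with an interval (25.0%, 8.66 to 49.1). TJP3, which encodes a zonula occludens scaffold and stood in the table as ZO3, had 3 intervals and the highest value of the 7 lists. These were 47 downstream of the gene, shared with RAX2, MRPL54 and APBA3, 41 inside the gene at 4060 bp, and 15 at 932 bp upstream. PARD6B, a cell polarity gene, had 37 inside the gene. OCLN, the occludin gene, had 36 at 6023 bp upstream and 16 in a downstream interval shared with GTF2H2. CGN, the cingulin gene, had 18 at 6252 bp upstream, and MARVELD3 had 12. Proteoglycans had 3 of 12 (25.0%, 5.49 to 57.2), the syndecan genes SDC4 with 21 and SDC1 with 15, and CSPG4 with 17 in an interval shared with SNX33. Desmosomal and other cadherin superfamily genes had 3 of 30 (10.0%). EVPL, the envoplakin gene, had 45 and 14 in downstream intervals shared with other genes. CELSR1, a planar polarity cadherin gene, had 39 and 17 inside the gene, both with a CpG island and no promoter, and FAT2 had 22. Basement membrane and other glycoprotein genes had 2 of 19 (10.5%), EMILIN1 with 19 in a shared interval and MATN2 with 16, and no interval was assigned to the fibronectin gene FN1 or the osteopontin gene SPP1. Matrix enzymes and inhibitors had 2 of 22 (9.09%), MMP15 with 16 and LOXL1 with 13. The median of the highest interval of each of the 23 genes was 22, against 24 over all 1833 gene names.

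**Figure D5:**
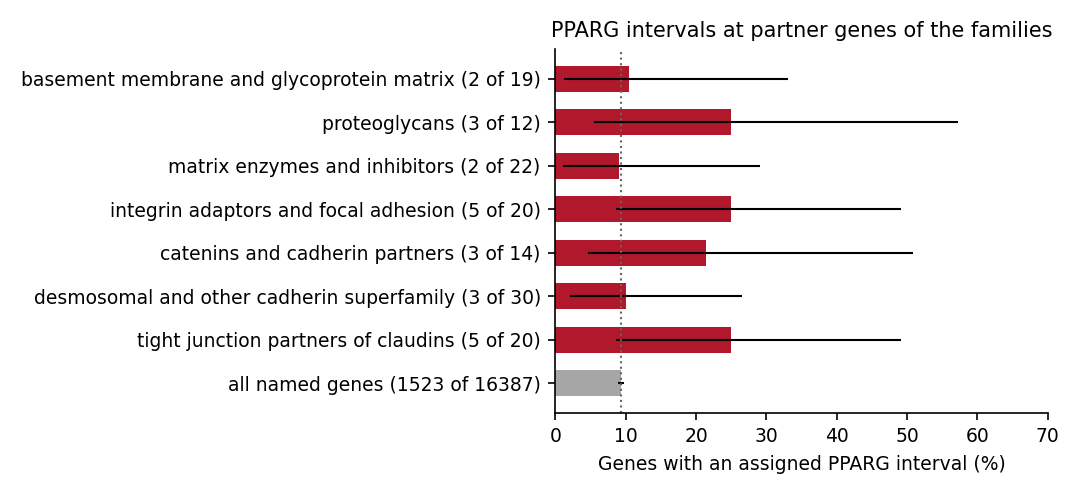
Share of genes with an assigned PPARG interval in 7 lists of partner genes (red bars, percent) and among all named genes (grey bar), with exact binomial 95% intervals as black lines. Shares run from 9.09% to 25.0%, and every black line of a list crosses the dotted line at 9.29%.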

How the data were processed

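Per the submitters' processing notes, BWA was used with build Oar_v3.1. The sources used here do not give the BWA version, the caller, thresholds, filters or gene annotation. The authors' deposited table lists per interval the highest and mean signal, whose scaling between libraries is not stated, with CpG islands, promoters, assigned genes, signed distances and positions. Read totals are unknown, so heights carry no counting error. Positions are printed as filed.

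Gene lists were split into 2160 pairs of interval and gene in Python 3.11.15 with pandas 2.3.3, after a check on simulated lists. Names were matched to 16387 named protein-coding genes on chromosomes in RefSeq's table of ARS-UI_Ramb_v3.0, used for names only. Symbols made of LOC and a number were left out, and all found genes but CLDND2 matched. The older names EMID2 (COL26A1) and ZO3 (TJP3) were resolved by hand, after the data were seen. LOC and tRNA names aside, 137 other unmatched names count as no interval. Exact binomial 95% intervals came from scipy 1.17.1, the limit of a share of 0 is 3 counts of the total, and an input overlap was at least 1 bp. Every gene found by the rule was named, and every partner gene with an interval. The genes and lists were chosen with earlier results of these data known. With 1 library per group no test was made. Alternatives covered the intervals counted, the distance window, the names and the measure of height. No sequence was used here.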

Additional observations from a re-analysis of the deposited data

How the results depend on the processing

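The 9 gene names became 5 with intervals at or above the median height, 5 with intervals of a single assigned gene and 0 within 1 kb of the start, since each of these keeps fewer intervals. They stayed 9 without input intervals, and were 7 within 10 kb or inside the gene and 8 without CLDND2. The family share of 6.47% was 5.76% with the RefSeq table's symbols, with or without its synonyms. The median height of 30.5 was 49.5 for intervals of a single gene, which were also those whose nearest assigned start was a family gene's (an alternative chosen after the data were seen), and 29 for the highest interval of each gene. The median of the mean signal, a different measure, was 13.8, against 10.4 for all intervals. The share of 20.0% within 5 kb was 0 within 1 kb and 40.0% within 10 kb, against 60.1% of all pairs within 10 kb. At or above the median height, shares within 5 kb, inside the gene and with a CpG island were 33.3%, 50.0% and 66.7%, against 43.6%, 36.5% and 47.6% of all pairs. In this 47.6% an interval counts once for each of its genes, unlike in the share of all intervals given earlier. With a single assigned gene they were 16.7%, 66.7% and 50.0%, against 33.7%, 59.2% and 24.1%. The planned count of receptor half-sites in promoters was not run, as no promoter sequence was used here. No paired analysis was possible because each group has 1 library.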
